A study of Mus musculus with 21 samples.

Results

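The C/EBP genes Cebpa, Cebpb, Cebpd, Cebpe and Cebpg were measured in livers of mice fed a high-fat diet with or without quercetin, a plant flavonoid. Members were taken as the spots, controls left out, whose gene name on the array was 1 of these 5 symbols. Each gene had 1 probe printed in 1 spot, so the family made up 5 of 55681 probes and 5 of the 19729 genes tested. The family was chosen because Cebpe had a low p-value in the comparison of the diets on these same arrays. The difference of Cebpe between the diets is therefore given as a description, with no test.

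C/EBP proteins bind DNA through a basic region and pair through a leucine zipper (bZIP), with each other or with other bZIP proteins. C/EBPα keeps hepatocytes differentiated and drives genes of gluconeogenesis, glycogen and plasma protein synthesis, while C/EBPβ and C/EBPδ are induced by cytokines and drive acute-phase genes. C/EBPε is best known as the factor that completes granulocyte maturation, and C/EBPγ, which lacks a strong activation domain, acts as a partner of the other members and of ATF4.

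All livers came from adult male C57BL/6J mice, 1 mouse per array. After 3 weeks on a normal-fat diet, 11 mice were switched to high-fat food for 12 weeks (HF) and 10 mice to the same food with 0.33% quercetin by weight (HF-Q). Food was withdrawn 2 to 4 hours before the livers were collected. The high-fat diet was thus common to both groups, and no liver of a mouse kept on the normal-fat diet was analysed here. Every array carried 1 liver in the Cy5 channel and a pool of all samples in the Cy3 channel, in 1 dye orientation. Expression is therefore given relative to the pool on a log2 scale. A value of 0 is not the mean of these livers for every gene. Orm3 averaged -1.55 in HF and -1.81 in HF-Q livers, and S100a9 -1.59 and -1.36. Whether the pool held more than these 21 livers was not tested.

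Both groups were present on each of the 3 slides. In the liver channel 44.2% to 51.3% of the probes exceeded background clearly, and the number of arrays limits the precision. All 6 hepatocyte markers were well above background on all 21 arrays. Markers of pancreatic acinar cells, by contrast, averaged between -1.24 and 2.58 on the log2 scale in HF livers, with a median of -1.06, and the r of that average with Cebpe was 0.29. In the table of normalized values that the authors deposited, 19 of 21 columns were most like their own scanner file (r = 0.656 to 0.872 after centring each gene). The column of HF-Q replicate 7 was instead most like the scanner file of HF-Q replicate 8 (r = 0.766, against 0.019 with its own). The reverse held for the column of HF-Q replicate 8 (r = 0.838 with the file of HF-Q replicate 7, against 0.059). Both livers are HF-Q livers on slide 3, so means by group or slide are the same either way. Liver names below follow the scanner files.

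The probes are short, and each reads only 1 place in its transcript. Stretches of 30 bases are shown for the 5 probes, since every value below rests on them, with a polyadenylation signal in capitals where a probe holds one.
Cebpa: ttttgttttggttttgctctgattcttgcc
Cebpb: tccgtttcgagcATTAAAgtgaagacattt
Cebpd: gacatttccgacagacttttgtagataaga
Cebpe: attctgtggctgAATAAActgcactgttac
Cebpg: aaattaagttgctgacaaaggaattaagtg
The hexamers AATAAA and ATTAAA were searched on the strand of the probe, and 10.1% and 3.95% of all 55681 probes of 60 bases hold them. On mouse build NCBI37 the probes lie at chr7:35906517-35906576 on the plus strand (Cebpa), chr2:167515828-167515887 on the plus strand (Cebpb) and chr16:15888459-15888518 on the plus strand (Cebpd). The Cebpe probe lies at chr14:55329200-55329259 on the minus strand and the Cebpg probe at chr7:35835477-35835536 on the minus strand, 71040 bases from that of Cebpa. No annotation of that build was used here, so the exon of each probe is not stated.

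The liver signal of all 5 probes was well above background on 21 of 21 arrays, and none was saturated or marked as an outlier. Intensities of different probes are not comparable, so each gene is set only against itself. In limma, 0% of the 19729 genes passed an adjusted p of 0.05 (0 genes, lowest adjusted p = 0.381) and 5.95% had an unadjusted p under 0.05 (1173 genes). Of Cebpa, Cebpb, Cebpd and Cebpg, 0 of 4 passed the adjusted and 0 of 4 the unadjusted threshold. Cebpe had an unadjusted p under 0.05, which is what the family was selected on, and did not pass the adjusted one.

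Cebpe RNA stood lower in the quercetin livers. Its log2 ratio to the pool ran from -0.054 to 0.25 in the 11 HF livers, with a median of 0.046, and from -0.51 to -0.011 in the 10 HF-Q livers, with a median of -0.15. Of the HF livers, 9 lay above the highest HF-Q liver, and 9 HF-Q livers lay below the lowest HF liver, so the groups overlapped in 3 livers. These were HF-Q replicate 8 at -0.011, HF replicate 1 at -0.027 and HF replicate 2 at -0.054. All 10 HF-Q livers, and 2 of 11 HF livers, were below the pool. Means were 0.078 ± 0.10 (SD, n = 11) and -0.19 ± 0.15 (SD, n = 10), a difference of -0.27 ± 0.054 (SE), or 1.20 times more in HF. The spread of Cebpe within groups was that of an ordinary gene, with a residual SD larger than in 50.2% of genes tested.

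**Figure D1:**
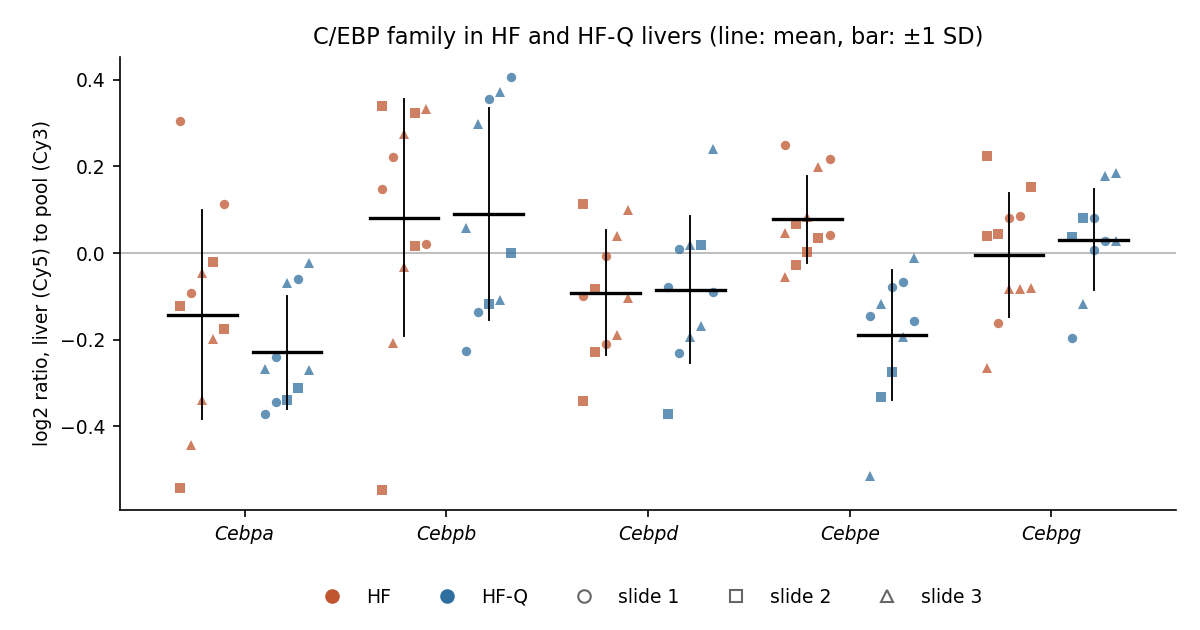
Log2 ratio of each liver (Cy5) to the pool (Cy3) for the 5 C/EBP genes in 11 HF and 10 HF-Q livers, with the slide as the symbol, the mean as a line and 1 SD as a bar. The groups overlap across most of their range for every gene but Cebpe, where 9 of 10 HF-Q livers lie below all HF livers.

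The raw intensity of Cebpe in the liver channel was 3159 to 4378 in HF livers (median 3830) and 2265 to 3632 in HF-Q livers (median 3273). The pool channel gave 2114 to 2861 over all arrays. After quantile normalization of each channel alone, the liver channel differed by -0.27 and the pool channel by 0.0017 on the log2 scale. The difference thus lay in the liver channel and the pool signal was level.

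Slide by slide, the difference of Cebpe was -0.28 ± 0.077 (SE) on slide 1, -0.32 ± 0.074 on slide 2 and -0.28 ± 0.11 on slide 3. HF livers averaged 0.17 ± 0.11 (SD, n = 3), 0.019 ± 0.041 (SD, n = 4) and 0.068 ± 0.10 (SD, n = 4) on the 3 slides. HF-Q livers averaged -0.11 ± 0.046 (SD, n = 4), -0.30 ± 0.040 (SD, n = 2) and -0.21 ± 0.22 (SD, n = 4). The slide means of both groups thus moved together, with slide 1 highest and slide 2 lowest. The gene was picked for its difference on these same slides, which favours 1 sign on each. The lowest liver of all, HF-Q replicate 7 at -0.51, stood on slide 3, and the difference was -0.23 without it.

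**Figure D2:**
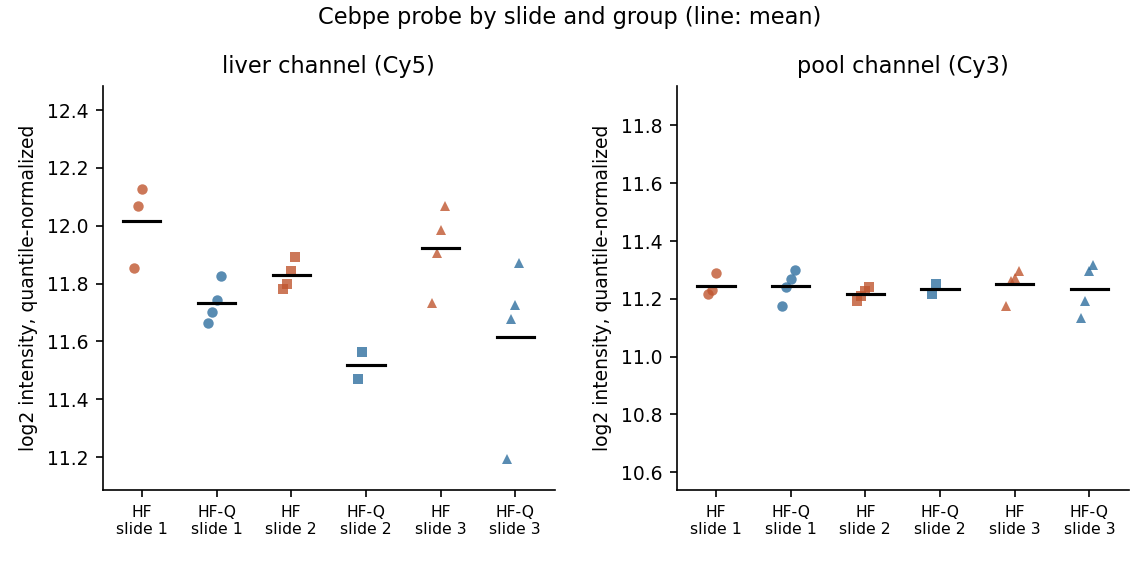
Quantile-normalized log2 intensity of the Cebpe probe in the liver channel (left) and the pool channel (right), by slide and group, with the mean as a line and both axes spanning the same range. The liver channel is lower in HF-Q on each slide (differences of the ratio of -0.28, -0.32 and -0.28), while the pool channel differs by 0.0017 overall.

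Whether Cebpe moved with granulocytes was looked at through their own genes. Of 20 genes of neutrophil granules and targets of C/EBPε, 12 could be tested. The granule proteins Ltf, Ngp, Mmp8, Mmp9, Mpo, Prtn3 and Cd177, and the integrin Itgb2l, were well above background on 0 of 21 arrays. Among the 12 tested, 4 were higher and 8 lower in HF-Q, with a median of -0.019. Over all genes, 10475 of 19729 were lower, with a median of -0.0044. With median centring of the arrays these medians were 0.008 and 0.024, so the list stayed below all genes while its sign turned. Lcn2, a granule protein that hepatocytes also secrete, had a difference of -0.15 ± 0.069 (SE). An unadjusted p under 0.05 was found for 1 of 12 members, against 5.95% of all genes.

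S100a8 and S100a9, which encode the calprotectin subunits of neutrophils and monocytes, differed the other way, by 0.20 ± 0.10 and 0.23 ± 0.11 (SE). Their r with Cebpe across livers was -0.515 and -0.476, and with the group means taken out -0.373 and -0.295. Ly6g, the surface marker of mouse neutrophils, did not share this sign, with an r of 0.611 (0.704 with the group means taken out). Over the 10 neutrophil markers, 7 were tested, 2 were higher and 5 lower, and 0 had an unadjusted p under 0.05. Their mean log2 ratio ran from -0.645 to -0.339 in HF livers and from -0.51 to -0.309 in HF-Q livers. The r of this mean with Cebpe was -0.336, while the median r of the 7 markers was -0.00413. The median of the mean log2 ratio was -0.455 in HF and -0.43 in HF-Q livers, so the 2 groups overlapped and were nearly level. In whole liver, fewer cells of a type and less RNA per cell cannot be told apart.

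Cebpa, the hepatocyte factor, ran from -0.54 to 0.30 in HF livers, with a median of -0.12, and from -0.37 to -0.023 in HF-Q livers, with a median of -0.27. The HF-Q livers all lay within the range of the HF livers, 3 of which were above every HF-Q liver. The means differed by -0.087 ± 0.081 (SE, n = 10 and 11; limma adjusted p = 0.977), with a 95% interval from -0.25 to 0.08. The slides disagreed on Cebpa. Its difference was -0.36 ± 0.11 (SE) on slide 1, -0.11 ± 0.14 on slide 2 and 0.099 ± 0.098 on slide 3, where HF livers averaged 0.11 ± 0.20 (SD, n = 3), -0.22 ± 0.23 (SD, n = 4) and -0.26 ± 0.17 (SD, n = 4). The 3 HF livers of slide 1 included the highest values of the gene, 0.30 in HF replicate 11 and 0.11 in HF replicate 5.

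Cebpb, the cytokine-induced member, was the most variable of the 5 between livers of 1 group, with a residual SD larger than in 93.9% of genes. HF livers ran from -0.55 to 0.34, with a median of 0.15, and HF-Q livers from -0.23 to 0.41, with a median of 0.029. The groups overlapped almost fully, and HF replicate 1 alone lay below -0.23. The difference was 0.0089 ± 0.11 (SE; limma adjusted p = 0.999), with a 95% interval from -0.21 to 0.23.

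Cebpd, the other acute-phase member, ran from -0.34 to 0.11 in HF livers, with a median of -0.099, and from -0.37 to 0.24 in HF-Q livers, with a median of -0.083. Its difference was 0.0072 ± 0.066 (SE; limma adjusted p = 0.999), with a 95% interval from -0.13 to 0.14. Neither Cebpb nor Cebpd had a direction that held, since both signs changed when single livers were left out.

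Cebpg, the partner without a strong activation domain, ran from -0.26 to 0.22 in HF livers, with a median of 0.040, and from -0.20 to 0.19 in HF-Q livers, with a median of 0.033. Its difference was 0.035 ± 0.057 (SE; limma adjusted p = 0.997), with a 95% interval from -0.08 to 0.15, and it was -0.0054 with the scanner's own processed signals. On slide 3 Cebpg differed by 0.20 ± 0.083 (SE), against -0.022 ± 0.096 on slide 1 and -0.056 ± 0.084 on slide 2.

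Raw liver intensities of the other members overlapped between the diets. Cebpa gave 6407 to 12260 in HF livers (median 9552) and 7451 to 10401 in HF-Q livers (median 8365). Cebpb gave 6388 to 12752 in HF livers (median 10915) and 8344 to 14077 in HF-Q livers (median 10367). Cebpd gave 1528 to 2240 in HF livers (median 1878) and 1592 to 2493 in HF-Q livers (median 1808). Cebpg gave 670 to 978 in HF livers (median 860) and 657 to 1023 in HF-Q livers (median 797). Once quantile-normalized, the liver channel differed by -0.097 for Cebpa, 0.0051 for Cebpb, 0.0047 for Cebpd and -0.0080 for Cebpg on the log2 scale. The pool channel differed by -0.0097, -0.0082, -0.0021 and -0.037, so for Cebpg the larger of the 2 differences lay in the pool.

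Members were next compared with each other across the 21 livers, in 10 pairs with permutation tests of 100000 resamples, two-sided, adjusted over the pairs. Cebpb and Cebpd rose and fell together, with a Pearson r of 0.625 (permutation p = 0.00249, adjusted p = 0.0249) and a Spearman rho of 0.63 (permutation p = 0.00277, adjusted p = 0.0277). This was the 1 pair past the threshold. Without HF replicate 1 and HF-Q replicate 10, the livers farthest from the Cebpb median, r was 0.624 (permutation test, adjusted p = 0.0413) and rho was 0.586, no longer past the threshold (permutation test, adjusted p = 0.0914). The r was 0.625 after taking out group means and 0.464, 0.538 and 0.83 on slides 1, 2 and 3.

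Cebpa and Cebpb had an r of 0.528 (permutation p = 0.0138, adjusted p = 0.0689) and a rho of 0.508 (permutation p = 0.0194, adjusted p = 0.0969). This pair looked different from slide to slide. The r was -0.0246 over the 7 livers of slide 1, 0.897 over the 6 of slide 2 and 0.937 over the 8 of slide 3. With both group and slide means taken out it was 0.607 (permutation p = 0.00361, adjusted p = 0.018). It fell to 0.46 without HF replicate 1, which was lowest for both genes, and HF replicate 11, which was highest for Cebpa.

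No pair with Cebpe passed the threshold, nor did any pair with Cebpg. The r of Cebpe was 0.383 with Cebpa, 0.109 with Cebpb, 0.116 with Cebpd and -0.327 with Cebpg. The permutation p-values of these 4 pairs, adjusted, were 0.286 to 0.636. In the deposited table the r of Cebpe with Cebpa was 0.544, past the threshold (permutation test, adjusted p = 0.0356). With Cebpa the r was 0.743 on slide 1, 0.401 on slide 2 and -0.101 on slide 3. Cebpa and Cebpg, whose probes are 71040 bases apart, had an r of 0.112. The r of Cebpg was -0.111 with Cebpb and -0.139 with Cebpd.

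**Figure D3:**
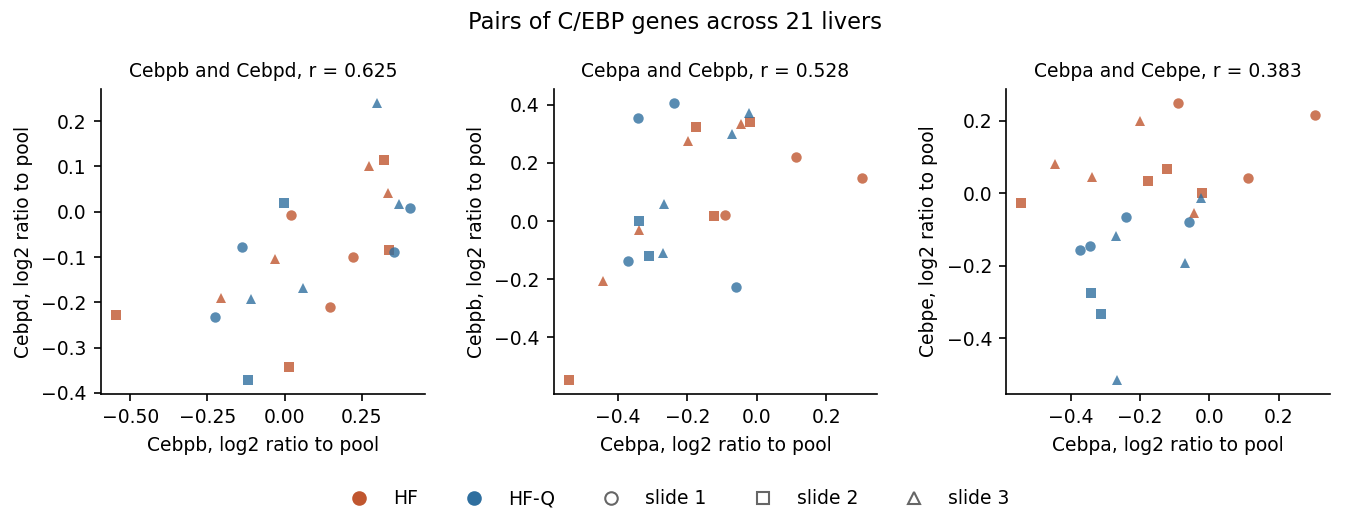
Log2 ratios to the pool of 3 pairs of C/EBP genes in 21 livers, coloured by group, with the slide as the symbol. Cebpb and Cebpd follow each other (r = 0.625), Cebpa and Cebpb do so on slides 2 and 3 but not on slide 1, and Cebpa and Cebpe are loosely related (r = 0.383).

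Promoters of 3 members were in the RefSeq table of build GRCm38.p6, those of Cebpa, Cebpb and Cebpg. The 250 bases before the start of Cebpa and Cebpb are shown because both genes varied most between livers of 1 group, with matches to TTGCG, the core that C/EBP proteins bind, and TGACG, the core that CREB and ATF proteins bind, in capitals. Both strands were searched, so CGTCA is a match to TGACG on the other strand, and no match overlaps another.
Cebpa, chr7:35119043-35119292, plus strand: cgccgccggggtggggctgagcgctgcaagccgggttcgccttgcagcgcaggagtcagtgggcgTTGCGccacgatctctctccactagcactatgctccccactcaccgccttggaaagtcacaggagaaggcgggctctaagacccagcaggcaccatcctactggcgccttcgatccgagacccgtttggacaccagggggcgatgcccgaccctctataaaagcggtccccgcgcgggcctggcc
Cebpb, chr2:167688665-167688914, plus strand: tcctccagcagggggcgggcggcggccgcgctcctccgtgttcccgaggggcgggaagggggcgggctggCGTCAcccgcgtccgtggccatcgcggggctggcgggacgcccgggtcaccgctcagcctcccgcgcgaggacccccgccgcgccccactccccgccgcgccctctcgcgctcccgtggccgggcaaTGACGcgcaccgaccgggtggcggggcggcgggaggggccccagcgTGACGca
The Cebpa window held 1 TTGCG match, 185 bases before the start, and a TATAAA 30 bases before it. The Cebpb window held 3 TGACG matches, at 180, 53 and 7 bases before the start. Of 32536 promoter windows of this length, 14.6% hold TTGCG, 17.9% hold TGACG and 12.3% hold TATAAA. The Cebpg window held neither TTGCG nor TGACG but a pair of CCAAT matches, at 89 and 28 bases before the start, and 33.8% of windows hold CCAAT. The full palindrome TTGCNNAA, which 9.57% of windows hold, had no match in the 3 windows.

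Genes that went up and down with Cebpe across livers were sought among 19238 genes measured on all arrays. These values describe genes picked for their likeness and carry no test. At r of 0.7 or more there were 65 genes and at -0.7 or less there were 68. With the group means taken out and all genes counted anew, 58 and 15 were past these limits. The median gene had 36 genes at an absolute r of 0.7 or more, and Cebpe, with 133, had more than 75.6% of genes. Cebpa had 478, more than 96.7% of genes, Cebpb 100, Cebpd 33 and Cebpg 13.

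The 8 genes with the highest r included enzymes of amino acid breakdown and of drug metabolism. Prodh2, which breaks down hydroxyproline, had an r of 0.879 (rho 0.842), Ftcd, an enzyme of histidine breakdown, 0.852 (rho 0.757), and Gpt, alanine aminotransferase, 0.839 (rho 0.808). Among the cytochromes P450, Cyp2d26 reached 0.855, Cyp3a57 0.852 and Cyp3a25 0.843. Cross-hybridisation between the similar Cyp3a genes was not tested. Macrod1, which removes ADP-ribose, had an r of 0.81, and Asgr1, a subunit of the hepatocyte receptor for asialoglycoproteins, 0.803. All 8 had lower means in HF-Q, from -0.12 ± 0.054 (SE) for Macrod1 to -0.32 ± 0.088 for Cyp3a25. That sign is tied to how they were picked, since Cebpe itself was lower there.

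On the opposite side stood Csad, which makes hypotaurine for taurine synthesis, with an r of -0.865 (rho -0.734). Csad spanned the widest range of the 16 genes, from -1.93 in HF replicate 3, the liver with the most Cebpe, to 1.94 in HF-Q replicate 7, the liver with the least. Eef1b2, a translation elongation factor, had an r of -0.788 and Rpl12, a protein of the large ribosomal subunit, -0.785. Il17rb, a cytokine receptor subunit, had an r of -0.778, and Unc13b, a vesicle priming factor, -0.756. Tmc7, of a family of channel-like membrane proteins, had -0.773. Adh7, an alcohol dehydrogenase, had -0.775 but was well above background on 11 of 21 arrays, and its r was -0.3 in the liver channel alone.

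Signs of all 16 genes were the same inside each group, and the size of r varied. For the 8 positive genes r was 0.73 to 0.909 in the HF-Q livers alone and 0.511 to 0.813 in the HF livers alone. For the 8 negative genes it was -0.841 to -0.497 in HF-Q livers. In HF livers it was -0.827 to -0.266, weakest for Tmc7 (-0.266) and Il17rb (-0.385). HF-Q replicate 7 was at the lowest or highest value of all livers for 15 of the 16 genes, Adh7 being the exception. Without it and HF-Q replicate 5, the livers farthest from the Cebpe median, r was 0.8 for Prodh2, 0.735 for Ftcd, -0.752 for Csad and -0.697 for Rpl12. With group and slide means taken out, a setting chosen after seeing the data, it was 0.889, 0.803, -0.721 and -0.644.

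**Figure D4:**
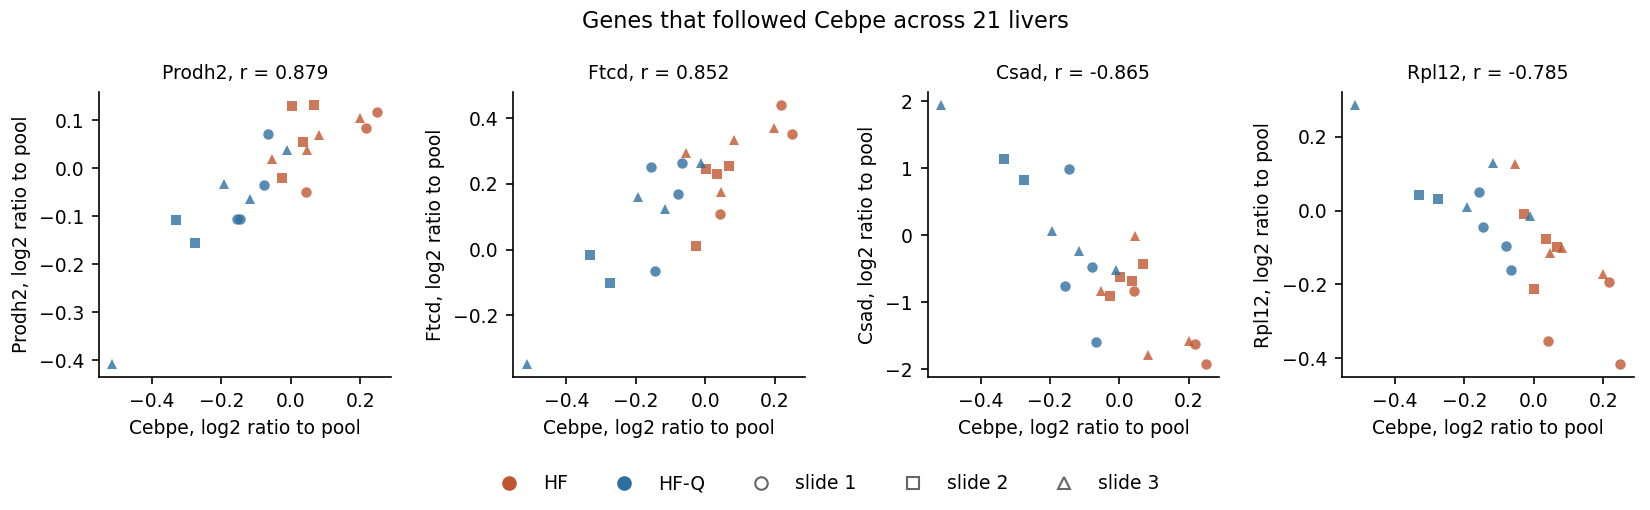
Log2 ratio to the pool of Prodh2, Ftcd, Csad and Rpl12 against that of Cebpe in 21 livers, coloured by group, with the slide as the symbol. Prodh2 and Ftcd rise with Cebpe (r = 0.879 and 0.852), Csad and Rpl12 fall (r = -0.865 and -0.785), and HF-Q replicate 7 lies at the far left of each panel.

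Markers of cell types were set beside Cebpe. The mean of 4 of the 6 hepatocyte markers, those with a value on all arrays, had an r of 0.203 with Cebpe. Their median r was 0.0358, and the highest was 0.628 for Cyp2e1, a cytochrome P450 of hepatocytes around the central vein. The lowest was -0.271 for Apoa1, an apolipoprotein gene. Markers of Kupffer cells had a median r of 0.0747 and those of stellate cells 0.102. Erythroid markers had the highest values of the lists, with an r of 0.453 for the mean of 3 tested genes and a median r of 0.35. That mean ran from -0.149 to 0.171 in HF and from -0.208 to 0.114 in HF-Q livers. Of the 3 genes, 1 had an unadjusted p under 0.05, against 5.95% of all genes. It was the haemoglobin gene Hba-a1, which differed by -0.24 (limma unadjusted p = 0.0486) and had an r of 0.191 with Cebpe. Alas2 differed by -0.053, with an r of 0.35, and Klf1 by 0.0026, with an r of 0.405. The part of these cells in the Cebpe values was not tested. Cebpe had an r of 0.228 with the percentage of probes well above background and of -0.0414 with the median intensity of the array.

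No neighbour of Cebpe on the chromosome had an r with it above 0.0558. Within 250 kb, 12 genes with a symbol were tested, and the lowest r was -0.371. Of these, 0 of 12 had an unadjusted p under 0.05, against 5.95% of all genes. Slc7a8, an amino acid transporter gene whose probe is 11937 bases away, differed by 0.077 ± 0.042 (SE) and had an r of -0.188. Near Cebpa, the lipoprotein receptor family gene Lrp3, 79760 bases away, had an r of 0.829 with it, while Pepd, 76899 bases away, had -0.17.

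The partners of the family showed little difference by diet. Of 19 bZIP partners and related genes, 18 were tested, and 8 were higher and 10 lower in HF-Q. Their median was -0.0073, and 0.01 on slide 2. Of the 18, 1 had an unadjusted p under 0.05, against 5.95% of all genes. That gene was Hlf, a clock-driven bZIP factor, at -0.20 ± 0.094 (SE; limma adjusted p = 0.836). Atf4, the stress-response factor that pairs with C/EBP proteins, had 0.12 ± 0.069 (SE; limma adjusted p = 0.882) and an r of -0.561 with Cebpe (-0.473 with the group means taken out). Trib3, a target of ATF4, had -0.28 ± 0.14 and Atf5 -0.099 ± 0.074. Ddit3, the dominant-negative relative known as CHOP, had -0.072 ± 0.071, Trib1, which directs C/EBPα to degradation, 0.016 ± 0.11, and Nfil3, a repressor of the clock output, 0.13 ± 0.18. None of these 6 had an unadjusted p under 0.05.

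Dbp, a clock output factor that swings with the time of day, varied far more between livers than between diets, with means of -0.37 ± 1.4 (SD, n = 11) in HF and -0.77 ± 1.2 (SD, n = 10) in HF-Q. Its r was 0.759 with Cebpa, 0.615 with Cebpb, 0.627 with Cebpd, 0.377 with Cebpe and -0.11 with Cebpg. Tef, its close relative, named after its values were seen, had 0.814, 0.647, 0.593, 0.38 and -0.0788. Nfil3, which opposes them, had -0.628, -0.552, -0.655, -0.287 and 0.156. With each of these 3 factors, Cebpa, Cebpb and Cebpd had a larger absolute r than Cebpe, and Cebpg had the smallest. Cebpa also had an absolute r of 0.801 with the first principal component of all genes, which held 15.7% of the variance, against 0.134 for Cebpe. Components 2 and 3 held 13.6% and 10.6% of the variance. With them Cebpe had an absolute r of 0.392 and 0.58, against 0.415 and 0.0022 for Cebpa. The time of day of each collection is not given in the labels, and its part in these correlations was not tested.

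Targets of the family were set out by role. Of 18 metabolic targets in hepatocytes, 4 were higher and 14 lower in HF-Q, with a median of -0.062. Over all genes, 10475 of 19729 were lower and the median was -0.0044. With median centring the median of the list was 0.022, where that of all genes was 0.024. Coagulation factor F9 had -0.099 ± 0.038 (SE; limma adjusted p = 0.783). It was the 1 of 18 members with an unadjusted p under 0.05, against 5.95% of all genes. Tdo2, which starts tryptophan breakdown, had -0.097 ± 0.061 and Otc, of the urea cycle, -0.095 ± 0.058. The r of Otc with Cebpe was 0.737, and 0.767 with the group means taken out. Over the 11 genes of this list with a value on all arrays, the median r with Cebpe was 0.193, and 0.127 with the group means taken out. Gys2, liver glycogen synthase, had a difference of -0.26 ± 0.17 and an r of 0.814 with Cebpa.

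Most acute-phase genes had lower means in HF-Q. Of 20 such targets of C/EBPβ and C/EBPδ, 18 were tested, 13 were lower and 5 higher, and the median was -0.092, against -0.0044 over all genes, of which 10475 of 19729 were lower. An unadjusted p under 0.05 was found for 8 of 18, all of them lower, against 2.93% of all genes that were lower at that threshold, and 0 passed the adjusted threshold, with a lowest limma adjusted p of 0.746. Orm2, an orosomucoid, had -0.20 ± 0.068 (SE), with means of -0.64 ± 0.13 (SD, n = 11) and -0.84 ± 0.19 (SD, n = 10). Orm3 had -0.26 ± 0.095, the serum amyloid Saa4 -0.17 ± 0.062 and haptoglobin, Hp, -0.17 ± 0.065. Most of the 8 are Orm and Saa genes, which are similar and may share signal, which was not tested. The 8 thus cannot be counted as separate genes, and Lcn2, counted among the neutrophil genes above, is also 1 of them. Over the 14 genes of the whole list with a value on all arrays, the median r was 0.00952 with Cebpb, 0.108 with Cebpd and 0.252 with Cebpe. With the group means taken out, the median r with Cebpe was 0.0958. Cebpe was picked on its difference between the diets and most of this list was lower in HF-Q too, so the 0.252 carries that difference. The median of the list was below 0 on each slide, with the slide as a block, with median centring, in processed signals, in Cy5 alone and in the deposited table. It ranged from -0.115 on slide 3 to -0.0136 on slide 2.

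Of 10 adipogenic targets, 8 were tested and all 8 had lower means in HF-Q, with a median of -0.117, but 0 of 8 had an unadjusted p under 0.05. Over all genes, 10475 of 19729 were lower, the median was -0.0044 and 5.95% had an unadjusted p under 0.05. The fatty acid transporter Cd36 had -0.27 ± 0.23 (SE), the desaturase Scd1 -0.20 ± 0.14, the fatty acid binding protein Fabp4 -0.12 ± 0.11 and the lipase Lpl -0.11 ± 0.10. Scd1 had an r of 0.554 with Cebpe (0.531 with the group means taken out). The median r of the list was 0.174 with Cebpe (0.0363 with the group means taken out) and -0.235 with Cebpa.

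Among 11 liver-enriched transcription factors, 5 were higher and 6 lower, with a median of -0.015. With median centring it was 0.021, against 0.024 for all genes. Nr1h4, the bile acid receptor FXR, had -0.20 ± 0.055 (SE; limma adjusted p = 0.684), with an r of 0.65 with Cebpa and 0.588 with Cebpe. Foxa3, a forkhead factor, had 0.22 ± 0.093 (SE; limma adjusted p = 0.806) and an r of -0.508 with Cebpe. Foxa1 had 0.22 ± 0.18 and Foxa2 0.15 ± 0.13. With the group means taken out, the r with Cebpe was 0.228 for Nr1h4 and -0.287 for Foxa3. Both genes were named for a low p in the contrast that picked Cebpe, which favours a large r of either sign.

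**Figure D5:**
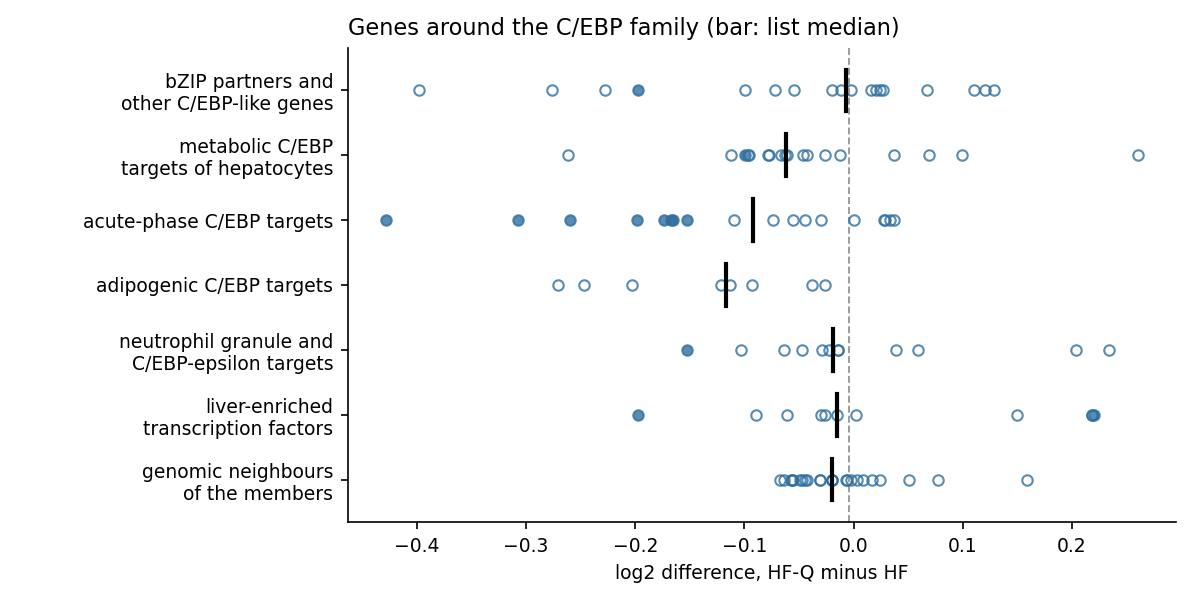
Log2 difference of HF-Q minus HF livers for each tested gene of 7 lists around the C/EBP family, filled where the unadjusted p is under 0.05, with the list median as a bar and the median of all genes (-0.0044) as a dashed line. The acute-phase list holds 8 filled points, all below 0, and the adipogenic list lies wholly below 0 with no filled point.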

How the data were processed

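The authors deposited scanner output with mean spot and background intensity per channel, not normalized, per the file headers, made with Agilent Feature Extraction 10.7.3.1, per the submitters' processing notes. Per the file headers, its columns of processed intensity had background subtracted and dyes normalized, and the other columns used hold marks of 0 or 1. The deposited table of log2 values (column medians 7.92) tracked the Cy5 signal; its scaling step is unstated in the labels and headers, and it served as an alternative.

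Background was corrected with normexp (offset 50) and ratios normalized by loess within arrays in limma 3.58.1 under R 4.3.3, which draws dim probes toward 0, with control and outlier spots at weight 0. Kept were the 26288 probes with Cy5 well above background on 10 or more of 21 arrays, and the brightest stood for a gene. Names follow the array, updated through RefSeq for 1293 tested genes. Groups were compared by the moderated test of limma with Benjamini-Hochberg adjustment. Each liver is from 1 mouse. The tests were checked on simulated data. The members and gene lists were chosen with earlier results of these data known. Named genes are the members, the 8 genes of highest and of lowest r with Cebpe and up to 4 of lowest p per list. Ddit3, Atf4, Trib1, Dbp, Nfil3 and neighbours of the members were named too. Genes described outside this rule include Tef and the markers Ly6g, Cyp2e1, Apoa1, Hba-a1, Alas2 and Klf1. Of these markers, Cyp2e1 and Apoa1 are given for their r and Hba-a1 for its low p. A gene that the rule names is not reported here but stayed in the counts. Alternatives changed background, normalization, filter, probe choice, weights, slide, replicate number and single livers.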

Additional observations from a re-analysis of the deposited data

Results flagged for a closer look

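Among 73 named genes searched in the 10 HF-Q livers, 5 had 1 liver far from the other 9. Chance flags about 1 in 20 such groups, and 5 of 73 is near that share. All 5 involved HF-Q replicate 7, the liver with the least Cebpe, so the 5 are not independent of each other. Prodh2, Cyp2d26, Macrod1 and Il17rb were also picked for their r with Cebpe, which favours an extreme value in this liver. F9 was named for a low p between the diets, which draws on the value of this liver too. The rate of 1 in 20 is thus no measure for the 5 genes. The log2 ratio of HF-Q replicate 7 was -0.409 for Prodh2, with the next HF-Q liver at -0.155 and HF livers from -0.0502 to 0.132. It was -0.324 for Cyp2d26, with the next liver at -0.043, and -0.537 for Macrod1, with the next at -0.274. Il17rb stood at 0.669, with the next at 0.202, and F9 at -0.155, with the next at 0.0116. The Cebpe value of this liver, -0.51 against a next HF-Q value of -0.33, was not far enough off to be listed. In the authors' deposited table the profile of this liver stands under HF-Q replicate 8.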

How the results depend on the processing

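Cebpe was lower in HF-Q in all 37 alternatives, from -0.323 (slide 2) to -0.227 (median centring). They reuse the arrays on which Cebpe was picked for this difference, which favours a constant sign. With the replicate block, which used 20 livers, the difference of Cebpe was -0.253. Replicate numbers did not pair the livers, since same-numbered deviations had an r of -0.337 to 0.157. No gene passed the threshold in 31 of 34 alternatives; 1 did with array weights (Sult2a7), and leaving out 1 liver in turn gave 0 to 4 (4 without HF replicate 2, 1 without HF-Q replicate 10). Among fits of single slides, Csad passed on slide 2 (1.64). Cebpa turned to 0.0994 on slide 3. Cebpb turned to -0.0387 with array weights, -0.00996 with the slide as a block, -0.0304 on slide 1 and -0.0926 on slide 2, and ran from -0.0539 to 0.044 without single livers. Cebpd turned to -0.0174 with scaling between arrays, -0.000857 in the deposited table, -0.00312 with array weights, -0.00326 with the slide as a block, -0.00458 with the replicate block and -0.0414 on slide 2, and ran from -0.0288 to 0.0391 without single livers. Cebpg turned to -0.00536 in processed signals, -0.00801 in Cy5 alone, -0.0119 in the deposited table, -0.0219 on slide 1 and -0.0557 on slide 2. The cause of these turns was not tested; the differences of Cebpb, Cebpd and Cebpg were smaller than their SE. The r of Cebpb and Cebpd kept its call wherever it was tested, but their rho lost it without the 2 farthest livers (0.586, adjusted p = 0.0914). Cebpa and Cebpb passed in processed signals (0.549), in the deposited table (0.579) and with group and slide means taken out (0.607), and Cebpa and Cebpe in the deposited table (0.544). Outside single slides, turned signs were -0.0978 for Cebpa and Cebpg in Cy5 alone, 0.288 for Cebpb and Cebpg without the 2 farthest livers, and 0.000868 for Cebpd and Cebpg in the deposited table. On single slides 8 of 10 pairs turned sign at least once, for example Cebpa and Cebpg at -0.677 on slide 2 and Cebpa and Cebpd at -0.537 on slide 1. For the 16 genes like Cebpe, 51 of 96 alternative values moved by more than their error, such as Adh7 to -0.3 and Eef1b2 to -0.476, and 0 changed sign, which the choice of genes with high r favours. Values within slides for pairs, and 2 of the settings for genes like Cebpe, were chosen after seeing the data. Dim probes such as Adh7 are limited by background.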
